A study of Mus musculus with 38 samples.

Results

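10 genes of resident bone marrow macrophages were examined: Adgre1, Siglec1, Cd163, Mrc1, C1qa, C1qb, C1qc, Trem2, Hmox1 and Slc40a1. They were chosen by name, as genes of macrophages that granulocyte colony-stimulating factor (G-CSF) is known to deplete. The choice of these genes and of the other gene lists was made with earlier results of these data known. Counts of members or list genes called are therefore description, also where the share of all genes stands beside them. Each symbol matched 1 Ensembl gene, so the 10 members stood among 47729 genes of the whole marrow tables and 46679 genes of the precursor tables. All 10 passed the filter on low counts in each of the 3 models described here.

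Resident macrophages of the marrow sit in erythroblastic islands, along the bone surface and beside the stem cell niche, where they engulf nuclei expelled by erythroblasts, dying neutrophils and worn red cells. Adgre1 (the F4/80 antigen), Siglec1 (CD169, a sialic acid receptor), Cd163 (the receptor for haemoglobin bound to haptoglobin) and Mrc1 (the mannose receptor, CD206) are surface receptors. C1qa, C1qb and C1qc encode the chains of the complement recognition molecule C1q, Trem2 is a lipid-sensing receptor that signals through Tyrobp, Hmox1 (haem oxygenase) opens the haem ring, and Slc40a1 (ferroportin) exports the freed iron. G-CSF is known to lower the number of these macrophages while it mobilises stem cells, and zoledronic acid (ZA) is a bisphosphonate that is taken up at bone surfaces by osteoclasts and other phagocytes.

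The study set out to measure gene expression in murine marrow and in osteoclast precursors after ZA, G-CSF or both. The mice were female C57BL/6J, aged 6 to 7 weeks, with no transgene named in the labels; the treatment protocol also describes athymic nude mice, but every sample is labelled C57BL/6. Groups were untreated, ZA alone (100 µg per kg), G-CSF alone (50 µg per kg daily for 3 days) and combined (both agents at those doses, G-CSF starting 2 days after ZA). G-CSF was the human recombinant protein, and both agents were given into the peritoneum. Whole marrow was measured in 9 libraries: untreated 2, G-CSF 3, ZA 2 and combined 2. Sequencing run 1 of the precursor table held 8 libraries of sorted cells (untreated 1, G-CSF 3, ZA 1, combined 3) and 3 of whole marrow (untreated 1, G-CSF 1, ZA 1). The sorted cells were depleted of cells with CD3, Ly-6G/Ly-6C, CD11b, CD45R or TER119 and selected for CD115, the product of Csf1r. The labels number biological replicates but name no animals, and the spread behind each p-value is that between libraries.

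Total estimated counts ran from 6236320 to 16152286 in whole marrow and from 21049178 to 33190370 in the run 1 precursors. The 3 whole marrow libraries of run 1 were the same libraries as untreated replicate 2, G-CSF replicate 2 and ZA replicate 2 of the marrow tables, with total counts that differed by 0.0299 to 1.56, and are not independent of them. Small RNA genes took 39.1% of TPM (transcripts scaled for gene length and to a fixed library total) in untreated replicate 1; the remaining whole marrow libraries had 6.46% to 12.3%. In whole marrow, 61 genes were at 1 TPM or more in every library of one G-CSF arm and at 0.1 TPM or less in every library of the other; none was a member. Of 47 such genes that were on with G-CSF and listed in the precursor table, 0 were at 1 TPM or more in all 6 run 1 precursor libraries with G-CSF. The T cell genes Cd3e and Cd8a divided the same way. Cd3e was at 0 to 0.189 CPM in the 5 marrow libraries with G-CSF and at 3.85 to 6.05 CPM in the 4 without it. Cd8a was at 0.116 to 0.888 against 2.76 to 7.70 CPM. Other genes of the same list, Ncr1 and Nkg7, rose with G-CSF alone against untreated. The 8 T and NK cell genes summed to 63.3 to 117 CPM with G-CSF and 62.6 to 101 CPM without it, so the sums overlapped. A difference in the mice between marrow with and without G-CSF cannot be told apart from the treatment, and this holds for every marrow comparison with G-CSF below. In run 2, 9 of 18 libraries had globin (Hbb-bt) more than 5-fold outside the run 1 range of their tissue label, so run 2 enters only as an alternative. In 2 of the 9, both labelled as precursors, it lay between the tissues, at 3453 and 4824 TPM.

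The C1q genes stand side by side on mouse chromosome 4 (GRCm38, minus strand): C1qb at chr4:136880129-136886187, C1qc at chr4:136889804-136893065 and C1qa at chr4:136895917-136898803. Together they cover 18675 bases. The other members lie apart: Adgre1 at chr17:57358691-57483527, Trem2 at chr17:48346401-48354147, Siglec1 at chr2:131069220-131086765, Mrc1 at chr2:14229392-14332057, Cd163 at chr6:124304656-124330527, Hmox1 at chr8:75093621-75100589 and Slc40a1 at chr1:45908068-45926523. RefSeq promoters (GRCm38.p6, the 250 bases before the RefSeq start) were given for 5 members: C1qb, C1qc, Cd163, Mrc1 and Trem2. The RefSeq start can differ from that of the gene spans above, and the promoters of C1qc and Mrc1 reach into those spans. The promoters of C1qb and C1qc are shown because the C1q genes varied together. That of Trem2 is shown because it had the largest difference with G-CSF among the members. C1qb covers chr4:136886201-136886450 and C1qc chr4:136892915-136893164, both on the minus strand, and Trem2 chr17:48346151-48346400 on the plus strand. Each is written 5′ to 3′ along the gene, and capitals mark matches to the PU.1 core GAGGAA, which reads as TTCCTC on the other strand, the motif of the master factor of the macrophage lineage, and in C1qb also a match on the other strand to the antioxidant response core TGACNNNGC.
C1qb: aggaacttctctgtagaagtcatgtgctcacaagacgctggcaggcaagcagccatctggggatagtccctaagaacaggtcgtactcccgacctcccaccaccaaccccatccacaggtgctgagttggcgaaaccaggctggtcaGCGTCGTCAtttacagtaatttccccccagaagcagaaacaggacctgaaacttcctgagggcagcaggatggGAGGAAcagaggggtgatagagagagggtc
C1qc: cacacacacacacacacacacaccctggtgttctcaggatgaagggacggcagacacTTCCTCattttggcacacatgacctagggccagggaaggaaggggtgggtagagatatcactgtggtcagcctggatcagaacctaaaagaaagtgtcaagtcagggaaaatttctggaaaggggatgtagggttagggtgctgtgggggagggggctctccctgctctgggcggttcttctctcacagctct
Trem2: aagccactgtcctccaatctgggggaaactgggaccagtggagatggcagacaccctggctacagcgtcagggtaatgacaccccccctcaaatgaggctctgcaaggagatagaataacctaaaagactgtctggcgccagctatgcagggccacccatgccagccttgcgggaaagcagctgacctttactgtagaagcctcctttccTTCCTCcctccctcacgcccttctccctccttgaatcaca
The PU.1 core was found once each in C1qb, C1qc and Trem2, 3 times in Mrc1, and with no match in Cd163, against 23.3% of 32851 RefSeq promoters of the same length. The antioxidant response core occurred in 10.2% of them. Neither the interferon-stimulated response core (2.98% of promoters) nor the E-box CACGTG (6.02%) matched in the 5 promoters. A match describes letters and not a bound site.

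Levels between genes were compared in TPM. In untreated marrow the order of mean TPM, with SD over 2 libraries, was Slc40a1 88.4 ± 31.9, Hmox1 37.8 ± 24.5, C1qa 23.6 ± 6.68, C1qb 20.6 ± 6.36 and C1qc 16.6 ± 7.07. Then came Adgre1 at 5.46 ± 2.45 TPM, Trem2 at 3.91 ± 1.51, Mrc1 at 2.83 ± 1.19, Cd163 at 2.16 ± 0.887 and Siglec1 at 0.934 ± 0.648. The iron and haem genes and the C1q genes were therefore the abundant members, and the surface receptors the scarce ones. Every pair of neighbours in this order overlapped within 1 SD except C1qc and Adgre1. Slc40a1 and Hmox1 held the top 2 places and Siglec1 the last place in all 4 marrow groups.

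In whole marrow, 4 of the 10 members were lower with G-CSF alone than untreated: Trem2, Siglec1, Cd163 and Adgre1. No member was called higher. Of all 14737 genes tested, 11.8% were called in this comparison and 6.91% were called lower (edgeR quasi-likelihood test, Benjamini-Hochberg adjusted p under 0.05). The 4 genes encode surface receptors. RNA of Adgre1, Cd163 and Trem2 was also found in the sorted precursors of run 1, at 6.05 to 13.5, 1.64 to 3.04 and 13.3 to 26.9 TPM. The median log2 change of the members was -0.52, against 0.01 over all genes, and all 10 estimates were below 0 on this scale. These changes are in counts scaled between libraries by trimmed means (TMM); how they depend on that scale follows below.

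Trem2 had the largest difference. Its TMM-scaled CPM (counts relative to a scaled library total) were 11.5 and 8.83 in untreated marrow and 2.50, 2.78 and 2.65 with G-CSF. ZA marrow had 5.39 and 6.46 CPM, and combined marrow 4.93 and 4.34. The groups did not overlap: untreated was highest, then ZA, then combined, then G-CSF alone. The log2 change of Trem2 with G-CSF was -1.93 ± 0.28 (SE; edgeR adjusted p = 0.00305), and leaving out any single library kept it between -2.12 and -1.72 with adjusted p of at most 0.0199.

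Siglec1 had 16.5 and 21.3 CPM in untreated marrow. With G-CSF it had 7.42, 8.17 and 8.04 CPM, with ZA 13.4 and 11.0, and with both agents 5.33 and 7.53. The 5 libraries with G-CSF all lay below the 4 without it. Its change with G-CSF was -1.26 ± 0.24 (edgeR adjusted p = 0.00987). The call was lost without untreated replicate 2 (log2 change -1.07, adjusted p = 0.0807).

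Cd163 had 31.2 and 25.0 CPM in untreated marrow and 8.96, 10.02 and 17.3 with G-CSF. It had 30.5 and 21.7 CPM with ZA, and 10.4 and 17.5 with both. ZA and untreated values overlapped, and both groups with G-CSF were lower than both without. The log2 change with G-CSF was -1.22 ± 0.33 (edgeR adjusted p = 0.0452), close to the threshold. It was lost without G-CSF replicate 1 or 2, either untreated library or either ZA library, with adjusted p up to 0.152, and in a fit of the 2 groups alone (-1.20, adjusted p = 0.0567).

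Adgre1 had 64.5 and 54.9 CPM in untreated marrow and 31.1, 32.7 and 31.1 with G-CSF. ZA marrow had 51.6 and 33.0 CPM and combined marrow 25.5 and 30.4. ZA replicate 3, at 33.0 CPM, stood close to the libraries with G-CSF. In that library the 7 megakaryocyte and platelet genes summed to 796 CPM and the 10 stromal and endothelial genes to 683 CPM, against 114 and 260 in ZA replicate 2 and 1023 to 1557 and 464 to 647 in the libraries with G-CSF; their part in the level of Adgre1 was not tested. The change of Adgre1 with G-CSF was -0.91 ± 0.20 (edgeR adjusted p = 0.0205), and leaving out any single G-CSF or untreated library moved the adjusted p to between 0.0506 and 0.0863. With the shared replicate number as a block the adjusted p was 0.0539.

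With G-CSF alone the C1q genes were not called, and their difference from these receptors was not tested. C1qa had 84.0 and 55.4 CPM in untreated marrow and 72.0, 57.3 and 62.3 with G-CSF. C1qc had 63.9 and 52.3 CPM in untreated marrow and 55.4, 55.6 and 56.5 with G-CSF. The untreated and G-CSF libraries overlapped for all 3 chains. The log2 changes were -0.12 ± 0.21 for C1qa, -0.30 ± 0.19 for C1qb and -0.05 ± 0.16 for C1qc (edgeR adjusted p = 0.732, 0.312 and 0.850). The mean TPM of each chain was higher with G-CSF than in untreated marrow (39.2 against 23.6 for C1qa), so the sign of these small changes depends on the scale.

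Mrc1 was close to level, with 46.9 and 38.1 CPM in untreated marrow and 39.1, 41.9 and 42.9 with G-CSF (log2 change -0.04 ± 0.15, edgeR adjusted p = 0.894). Its mean TPM was higher with G-CSF, at 4.81 against 2.83. Slc40a1 had 329 and 244 CPM in untreated marrow and 209, 158 and 151 with G-CSF. Both groups stood apart, as for 6 members in all (Trem2, Siglec1, Cd163, Adgre1, Hmox1 and Slc40a1), against 21.5% of all genes, and the change of -0.73 ± 0.21 missed the threshold (edgeR adjusted p = 0.0550; DESeq2 gave -0.74 with adjusted p = 0.0123; on log2(TPM + 1) it was 0.12). Hmox1 had 158 and 187 CPM in untreated marrow and 144, 134 and 140 with G-CSF, a change of -0.30 ± 0.15 (edgeR adjusted p = 0.202) that was 0.54 on log2(TPM + 1).

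**Figure D1:**
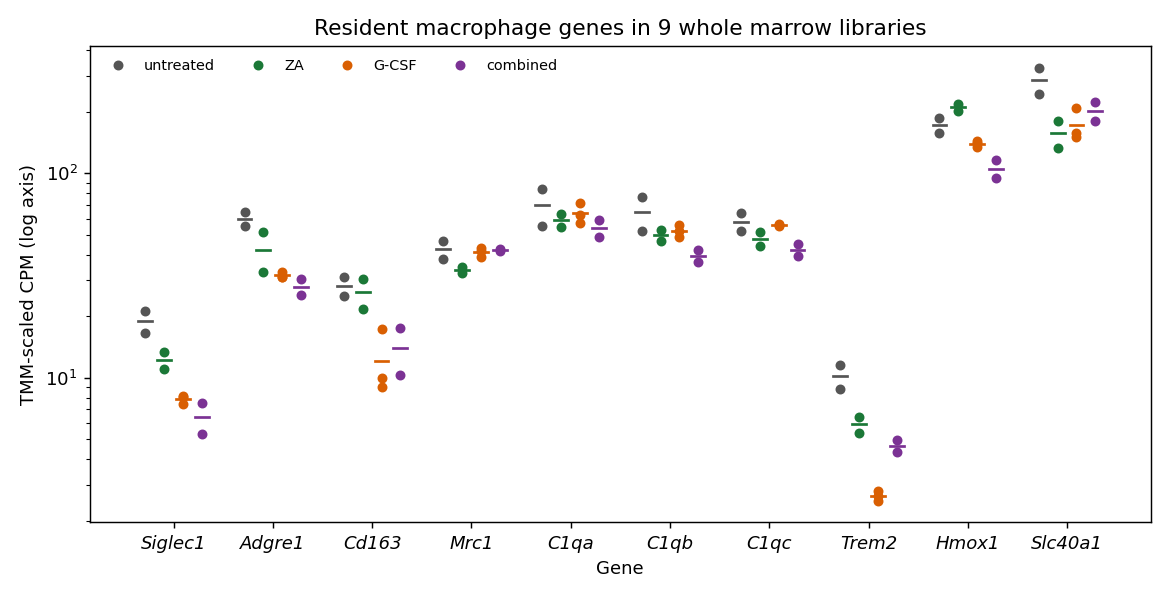
TMM-scaled CPM of the 10 members (log axis) in each of the 9 whole marrow libraries, with dots for libraries and bars for group means of 2 libraries (3 for G-CSF). Siglec1, Trem2, Cd163, Adgre1 and Hmox1 had every library with G-CSF below every library without it on this scale, while the mean TPM of Hmox1 was higher with G-CSF alone than untreated; the C1q genes, Mrc1 and Slc40a1 overlapped.

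The scale bears on these calls. TPM are shares of a fixed total, and on log2(TPM + 1) the median gene rose by 0.52 in G-CSF marrow, with 2938 genes called higher and 168 lower by limma, against 727 and 1019 in scaled counts. On that scale 0 of the 10 members were called in G-CSF against untreated, and Trem2 changed by -0.79 (limma adjusted p = 0.0764). Relative to the median gene, Trem2 was at -1.31, Cd163 at -0.77, Siglec1 at -0.73 and Adgre1 at -0.57 on log2(TPM + 1), and at -1.95, -1.23, -1.28 and -0.93 in scaled counts. With small RNA genes removed from the TPM, an alternative chosen after seeing the data, Trem2 was called (log2 change -1.01, limma adjusted p = 0.00877) and the other 9 members were not.

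**Figure D2:**
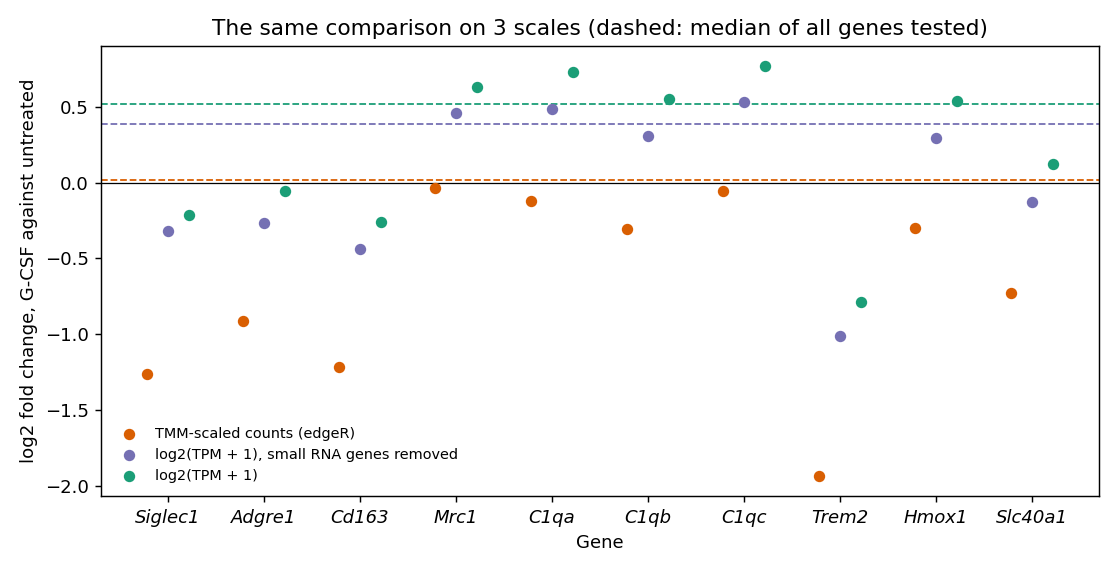
Log2 change of each member between G-CSF and untreated whole marrow on 3 scales, with a dashed line for the median of all genes tested on that scale. Trem2, Siglec1, Cd163 and Adgre1 lie below the line of their own scale in each case; the C1q genes, Mrc1 and Hmox1 lie below 0 in scaled counts and above 0 on both TPM scales.

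The same question can be asked in mice that also received ZA, in libraries that the comparison of G-CSF with untreated does not contain, although the shared fit pools their spread. Combined against ZA called 1 member, Hmox1 (4.33% of all genes were called, and 2.46% called lower). Hmox1 had 203 and 218 CPM with ZA and 116 and 94.8 with both agents. Its log2 change was -0.99 ± 0.16 (edgeR adjusted p = 0.00917), and -0.85 with adjusted p = 0.101 without combined replicate 3. On log2(TPM + 1) the call was lost as well, at -0.25 (limma adjusted p = 0.655), and at -0.27 (0.414) with small RNA genes removed. The receptors that were lower with G-CSF alone had estimates of -0.92 ± 0.27 for Siglec1 (adjusted p = 0.0987), -0.91 ± 0.37 for Cd163 (0.242), -0.60 ± 0.23 for Adgre1 (0.209) and -0.35 ± 0.31 for Trem2 (0.630), none past the threshold. The member median was -0.34, against -0.01 over all genes. Both combined libraries lay below both ZA libraries for 6 members, against 26.6% of all genes.

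Over both comparisons, the 5 libraries with G-CSF lay below the 4 without it in TMM-scaled CPM for 5 members: Adgre1, Cd163, Hmox1, Siglec1 and Trem2. Among all 14737 genes tested, 7.95% had that order. For Adgre1 the gap was narrow, from 32.7 CPM at most with G-CSF to 33.0 at least without. The mean TPM of Hmox1 was higher with G-CSF alone than untreated. Slc40a1 and Mrc1 had no such order: with ZA, Slc40a1 had 133 and 181 CPM, and with both agents 181 and 223. The test of whether the change with G-CSF differed between mice with and without ZA called 0 members and 0.00679% of genes (edgeR; 1738 genes had an unadjusted p under 0.05, and DESeq2 called 257 genes and 0 members). The largest such difference among the members was that of Trem2, 1.58 ± 0.42 (edgeR adjusted p = 0.239), followed by Slc40a1 at 1.09 ± 0.32 (adjusted p = 0.288; 0.0178 with no filter on low counts) and Hmox1 at -0.69 ± 0.22 (adjusted p = 0.310).

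ZA alone called 0 members, with 0.0339% of genes called and 0.0271% called lower (edgeR; 1395 genes had an unadjusted p under 0.05). DESeq2 called 139 genes, Slc40a1 among them (log2 change -0.88, DESeq2 adjusted p = 0.0496). In edgeR, Slc40a1 was at -0.86 ± 0.24 (adjusted p = 0.356), Trem2 at -0.78 ± 0.31 (0.497) and Siglec1 at -0.64 ± 0.26 (0.505). Both ZA libraries lay below both untreated libraries for 6 members, against 17.7% of all genes, while Hmox1 lay above, at 203 and 218 against 158 and 187 CPM (log2 change 0.29 ± 0.16, adjusted p = 0.587).

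Combined against untreated shares its untreated libraries with the comparisons of each single agent. It called 3 members lower, Siglec1, Adgre1 and Hmox1, where 7.72% of all genes were called, 4.55% lower and 3.17% higher. Both combined libraries lay below both untreated libraries for 8 members, all but Mrc1 and C1qa, against 26.6% of all genes. Siglec1 was at -1.56 ± 0.27 (edgeR adjusted p = 0.0103), and not called on log2(TPM + 1), at -0.20 (limma adjusted p = 0.483), or on log2(TPM + 0.1), at -0.34 (0.614). Adgre1 was at -1.10 ± 0.23 (adjusted p = 0.0232) and Hmox1 at -0.71 ± 0.16 (0.0313), but on log2(TPM + 1) these were 0.08 and 0.48 with the median gene at 0.79. Leaving out 1 library ended each of these calls in turn: Siglec1 without combined replicate 1 (adjusted p = 0.0992) or untreated replicate 2 (0.0531), Adgre1 without either combined library or untreated replicate 1 (up to 0.172), and Hmox1 without either combined library, G-CSF replicate 1 or 2, or untreated replicate 2 (up to 0.188). With the replicate number as a block, Adgre1 and Hmox1 had adjusted p of 0.0951 and 0.104, and in a fit of the 2 groups alone Hmox1 had 0.120 (-0.67). Trem2 was at -1.13 ± 0.31 (adjusted p = 0.0575), C1qb at -0.71 ± 0.21 (0.0725) and Cd163 at -1.02 ± 0.37 (0.134).

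Adding ZA to G-CSF called 0 members and 0.00679% of genes (edgeR; 1530 genes had an unadjusted p under 0.05, and DESeq2 called 204 genes and 0 members). Trem2 was the member farthest from 0, at 0.81 ± 0.28 (edgeR adjusted p = 0.385), with combined libraries at 4.93 and 4.34 CPM and G-CSF libraries at 2.50 to 2.78. Adgre1, C1qb, C1qc and Hmox1 went the other way, with each combined library below each library with G-CSF alone. The share of all genes with either order was not counted. Mrc1 was at 0.03 ± 0.15 and Adgre1 at -0.18 ± 0.21.

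**Figure D3:**
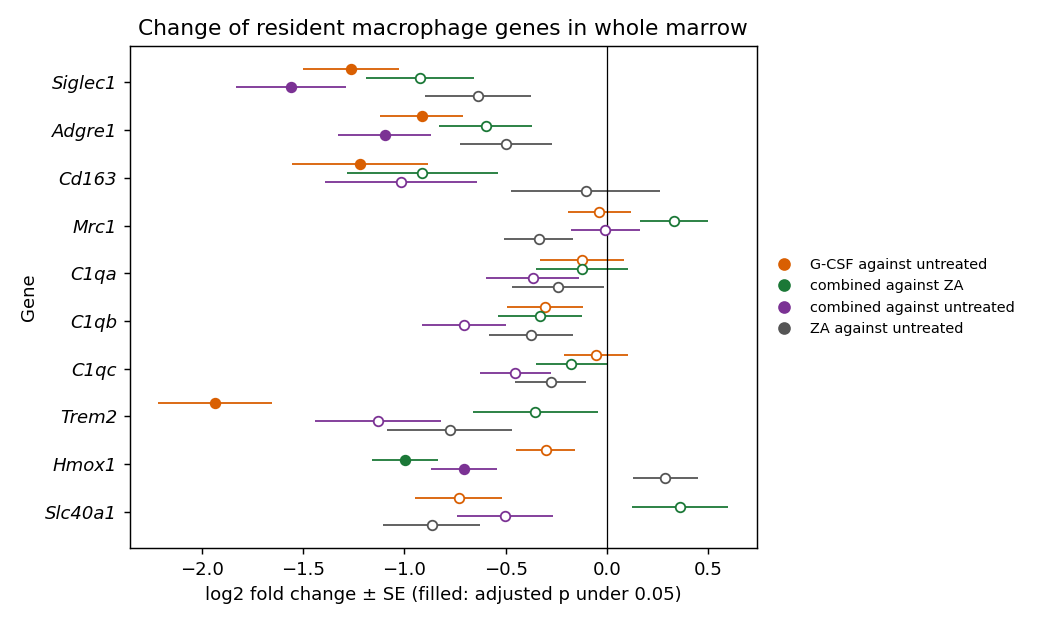
Log2 change with SE (edgeR) of each member in 4 whole marrow comparisons; filled points have an adjusted p under 0.05. Filled points are Siglec1, Adgre1, Cd163 and Trem2 for G-CSF against untreated, Siglec1, Adgre1 and Hmox1 for combined against untreated, and Hmox1 for combined against ZA; Adgre1 and Hmox1 in combined against untreated change sign on log2(TPM + 1).

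Among the 9 marrow libraries the members fell into patterns that are given as description, since the libraries share treatment and scale. Log2 CPM of C1qa and C1qb correlated at r = 0.90, C1qb and C1qc at 0.90, and C1qa and C1qc at 0.82. Siglec1 and Adgre1 correlated at r = 0.93, and each with Cd163 at 0.81, while Trem2 correlated with Cd163 at 0.76. Between the C1q chains and Adgre1, Siglec1, Cd163 and Trem2, r ran from 0.04 (C1qc and Cd163) to 0.62 (C1qb and Adgre1), with C1qb and Siglec1 at 0.55 and C1qb and Trem2 at 0.41. Of 9917 protein-coding genes, those most like the mean of the C1q genes were Bloc1s2 (r = 0.93), Pard6a (0.92), Cd48, Gimap9 and N4bp2l2 (0.91 each), over 9 libraries.

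Other genes of resident macrophages were counted from a list of 20. For this and the other lists, calls are in TMM-scaled counts, and how they depend on the scale is not given here. Of 18 tested, 6 fell with G-CSF and 0 rose: Cd209f (-3.75 ± 0.56), Axl (-1.78 ± 0.17), Hpgd (-1.16 ± 0.24), Cd5l (-0.90 ± 0.21), Fcgr4 (-0.85 ± 0.24) and Csf1r (-0.63 ± 0.16). Axl is a receptor for dying cells, Cd5l a secreted macrophage protein and Csf1r the receptor for the macrophage growth factor. The median of the 18 was -0.12. Of all genes tested with G-CSF against untreated, edgeR called 6.91% lower and 4.93% higher, and these shares apply to the lists below too. In combined against untreated 5 of 18 fell (Fcgr4, Hpgd, Cd5l, Axl and Cd68), against 4.55% of all genes. In combined against ZA 1 did, Fcgr4 (-1.97 ± 0.27, edgeR adjusted p = 0.00407), against 2.46% of all genes.

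The partners of Trem2 and of clearance gave 3 falls and 0 rises among 14 genes with G-CSF: Cd36 (-1.77 ± 0.16), a scavenger receptor, Apoe (-1.22 ± 0.21), a lipid carrier and Trem2 ligand, and Abca1 (-1.18 ± 0.29), a cholesterol exporter. Cd36 and Apoe also fell in combined against ZA, by 0.89 and 1.00 on the log2 scale (edgeR adjusted p = 0.0284 and 0.0436). Tyrobp, the adaptor of Trem2, was at -0.57 ± 0.22 with G-CSF (adjusted p = 0.123) and fell in combined against untreated (-1.20 ± 0.25, adjusted p = 0.0232).

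Iron and haem genes gave 3 falls and 1 rise among 13 with G-CSF. Slc11a1, a phagosomal metal exporter, was at -1.22 ± 0.29, Ncoa4, the ferritin receptor of autophagy, at -1.09 ± 0.24, and the haem transporter Slc48a1 at -0.59 ± 0.14, while ceruloplasmin (Cp) was at 1.67 ± 0.46. In combined against ZA 1 of 13 fell, Slc48a1 (-0.79 ± 0.16). Erythroblasts use several of these genes, and Hmox1 and Slc40a1 are not restricted to macrophages.

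Complement genes around C1q gave 3 rises and 0 falls among 11 with G-CSF. Serping1, the inhibitor of C1, was at 2.22 ± 0.55 and C4b at 3.28 ± 0.84. C1rb had 6.36 to 7.19 CPM with G-CSF and 0 CPM in each untreated and ZA library. For a gene that is off in this way without G-CSF, a difference in the mice cannot be told apart from the treatment. The inhibitor binds the C1 complex and C4 is its substrate.

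**Figure D4:**
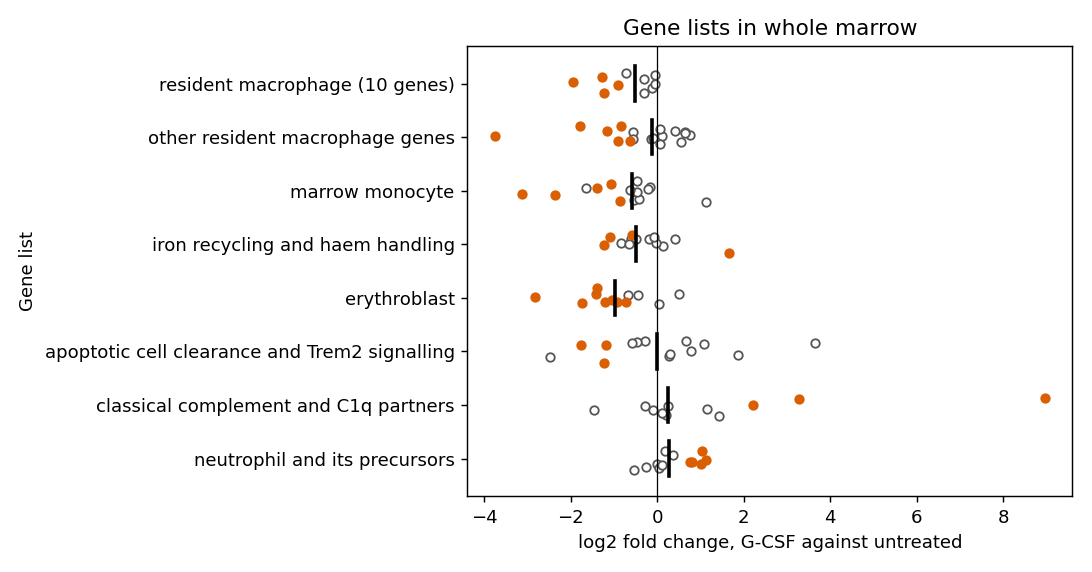
Log2 change (edgeR) between G-CSF and untreated whole marrow for each gene of 8 lists; filled points have an adjusted p under 0.05 and bars are list medians. The point farthest right is C1rb, whose fitted value is set against libraries at 0 CPM and is no measured fold. The members' median is -0.52, that of other resident macrophage genes -0.12 and that of erythroblast genes -0.98.

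Genes of other cell types moved in the same libraries. Erythroblast genes fell in 8 of 12 cases with G-CSF, and their summed level was 105444 to 203604 CPM in libraries with G-CSF against 256103 to 417467 without. Monocyte genes fell in 5 of 14 cases, among them Ly6c2 (-3.12 ± 0.28) and Cx3cr1 (-2.36 ± 0.25), and summed to 3824 to 5848 CPM with G-CSF against 5744 to 8069 without. The 10 members summed to 532 to 626 CPM with G-CSF against 615 to 882 without. The part of these cell types in the members' changes was not tested, and in whole marrow fewer macrophages and less RNA per macrophage cannot be told apart.

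The sorted CD115 precursors gave a second setting. In run 1, these cells had almost no C1q RNA and a high level of Trem2. Of the 10 members, 7 were lower and 1 higher in precursors than in whole marrow (44.6% of 16185 genes were called, 23.5% lower and 21.1% higher), and the median member change was -3.02, against 0.05 over all genes. The test used the 3 marrow libraries, which also belong to the marrow groups above, and the 5 precursor libraries of the same treatments. Small RNA genes took 16.9% to 42.4% of TPM in the 8 precursor libraries. On log2(TPM + 1) the split of all genes was 9231 higher and 1887 lower.

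C1qa was at 0.0522 to 1.00 TPM in the 8 run 1 precursor libraries and at 24.3, 28.4 and 35.4 TPM in the run 1 marrow. C1qb was at 0.164 to 0.765 TPM against 19.4 to 28.1, and C1qc at 0.0856 to 0.663 against 15.9 to 27.7. The ranges were far apart for each chain. The log2 changes were -7.14 ± 0.47, -6.55 ± 0.40 and -7.06 ± 0.36 (edgeR adjusted p = 3.41e-05, 2.49e-05 and 1.22e-05).

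Trem2 went the other way. It was at 13.3 to 26.9 TPM in the precursors and at 1.87, 2.60 and 4.98 TPM in the run 1 marrow, a log2 change of 2.27 ± 0.31 (edgeR adjusted p = 0.00103). It was the most abundant member in all 4 precursor groups and ranked 7, 8 and 9 among the 10 in the run 1 marrow libraries.

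Slc40a1 was at 0.222 to 7.34 TPM in precursors against 52.9 to 111 in marrow (-5.34 ± 0.88, edgeR adjusted p = 0.00381). With the replicate number as a block its call was lost (-4.50, edgeR adjusted p = 0.0697). Hmox1 was at 6.40 to 11.9 against 47.9 to 55.1 TPM (-3.35 ± 0.17, adjusted p = 1.27e-05). Siglec1 was at 0.0672 to 0.308 against 0.646 to 1.39 TPM (-2.68 ± 0.40, adjusted p = 0.00151) and Mrc1 at 0.496 to 1.36 against 2.73 to 4.87 TPM (-2.65 ± 0.19, adjusted p = 5.65e-05). These ranges did not overlap either. Cd163 and Adgre1 did not pass the threshold: Cd163 was at 1.64 to 3.04 TPM in precursors and 1.35 to 2.95 in marrow (-0.49 ± 0.28, adjusted p = 0.194), and Adgre1 at 6.05 to 13.5 against 5.17 to 7.19 TPM (-0.30 ± 0.24, adjusted p = 0.353). Without the G-CSF marrow library Cd163 was called lower, at -0.99 (edgeR adjusted p = 0.00472). On log2(TPM + 1) both estimates were above 0, at 0.29 and 0.53, with the median gene at 0.57.

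Other macrophage genes followed the C1q chains: 14 of 18 were lower and 2 higher in the precursors. The lower ones included Cd209f (-8.84 ± 0.87), Timd4 (-8.56 ± 0.76), Cd5l (-7.91 ± 0.59) and Marco (-7.85 ± 0.86). The higher ones were Csf1r (1.76 ± 0.18), whose product was used for the sort, and Cd68 (0.78 ± 0.21). Monocyte genes were higher in 11 of 14 cases and lower in 0, with Klf4 at 3.13 ± 0.22 and F13a1 at 2.76 ± 0.16. The sort removed cells with CD11b, Ly-6G/Ly-6C and TER119, and erythroblast genes summed to 163 to 1706 CPM in the 5 precursor libraries of this fit against 228822 to 394603 in marrow.

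**Figure D5:**
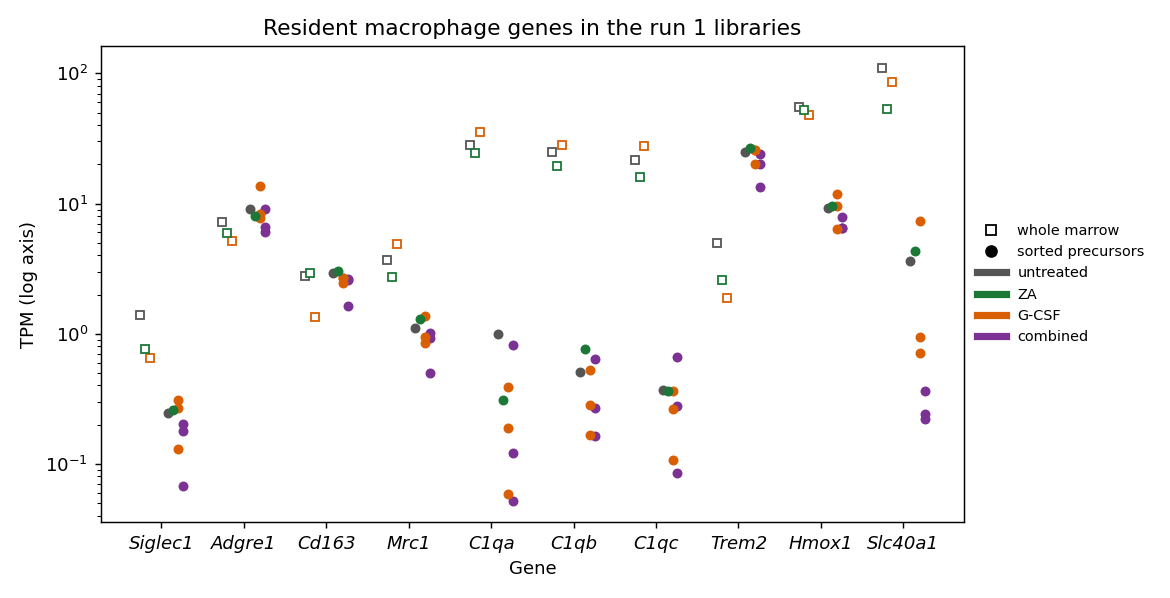
TPM (log axis) of the 10 members in the 8 sorted precursor libraries (filled circles) and 3 whole marrow libraries (open squares) of run 1, coloured by treatment. C1qa, C1qb and C1qc are at or below 1.00 TPM in every precursor library, while Trem2 is at 13.3 TPM or more in them and at 4.98 or less in marrow.

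Within the run 1 precursors, treatment called 0 members. With against without G-CSF, edgeR called 0% of 18779 genes (682 had an unadjusted p under 0.05; DESeq2 called 30 genes and 0 members), with 2 libraries without G-CSF, 1 untreated and 1 with ZA. Trem2 had 33.8 to 39.8 CPM in the 6 libraries with G-CSF and 38.3 and 42.5 without (log2 change -0.11 ± 0.10). Whether this change differed from that in marrow was not tested. Adgre1 was at 0.15 ± 0.17, Cd163 at -0.11 ± 0.14 and Siglec1 at -0.27 ± 0.44.

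Combined against G-CSF alone in precursors also called 0 members and 0% of genes (edgeR; 1306 had an unadjusted p under 0.05, and DESeq2 called 91). Slc40a1 was the member with the widest spread. It had 1.70, 16.97 and 1.36 CPM with G-CSF, 1.14, 0.473 and 0.543 with both agents, 6.90 untreated and 8.50 with ZA. All 3 combined libraries lay below all 3 with G-CSF, but by a narrow gap (1.14 against 1.36 CPM), and G-CSF replicate 2 stood far above the others. The share of all genes with that order was not counted. The log2 change was -3.22 ± 1.09 (edgeR adjusted p = 0.691), and DESeq2 called it (-3.22, adjusted p = 0.0250). Without G-CSF replicate 2 the log2 change was -1.09 (edgeR adjusted p = 0.917). Erythroblast genes summed to between 191 and 6928 CPM in the precursors with G-CSF, and their part in the level of Slc40a1 was not tested.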

How the data were processed

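Libraries came from an NEB Ultra RNA kit and were read on a HiSeq instrument, per the labels' protocols; use of strand is not given in the sources used here. The authors deposited Salmon estimated counts and TPM per Ensembl gene, per the file headers and the submitters' processing notes, which also name DESeq2 1.16.1 and mm10. Of the gene IDs, 99.1% were named from GENCODE (mm10).

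The members and gene lists were chosen with earlier results of these data known. After rounding, the counts went into edgeR 4.0.16 (R 4.3.3): quasi-likelihood test, TMM scaling, filterByExpr with a minimum count of 10 and total of 15, Benjamini-Hochberg threshold 0.05. The 4 marrow groups shared 1 fit. Run 1 precursors were fitted apart, and tissues were compared with treatment as a term. Every member was named; from each other list, up to 4 rising and 4 falling genes passing the test with a mean of at least 1 CPM, and some others chosen after their values were seen. Genes most like C1q were ranked by Pearson r of log2 CPM. Alternatives were DESeq2 1.42.0 size factors and Wald test, no filter, limma 3.58.1 on log2(TPM + 1) and log2(TPM + 0.1), fits of 2 groups, leaving out each library, run 2 libraries and the replicate number as a block. After seeing the data, removal of small RNA genes and of run 2 libraries with globin against their label were added, as was the block in the comparison of tissues. Scripts were tested on simulated data.

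Same-numbered marrow libraries deviated from their group means with correlations of -0.04 to 0.10 over 9 pairs, and run 1 precursors with -0.03 to -0.01 over 3 pairs. Within each tissue the numbers were therefore not taken to pair libraries. Marrow and precursor libraries of the same number were not compared in this way, so a pairing between tissues was not checked. A floor of 3 counts came to 0.186 to 0.481 CPM in marrow and 0.0904 to 0.143 CPM in run 1 precursors, and covers counting error only.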

Additional observations from a re-analysis of the deposited data

Results flagged for a closer look

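In run 2, 7 of 15 libraries labelled as precursors, and 2 of 3 labelled as marrow, had Hbb-bt more than 5-fold outside the run 1 range of their tissue label. In 2 of the 7, G-CSF replicate 1 and combined replicate 3, Hbb-bt lay between the tissues, at 3453 and 4824 TPM, with Csf1r at 61.3 and 31.4 TPM. The 7 members that were lower in run 1 precursors than in marrow each had, in some run 2 library labelled as precursors, a level above every run 1 marrow library; these data enter no comparison of the report except as an alternative. The highest values were 60.7 TPM for C1qa, 67.0 for C1qb, 53.1 for C1qc, 143 for Hmox1, 221 for Slc40a1, 10.6 for Mrc1 and 2.46 for Siglec1. In the 2 libraries labelled as marrow, C1qa was at 0.905 and 0.392 TPM. The samples behind these labels were not told apart.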

How the results depend on the processing

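For G-CSF against untreated, 4 members called became 0 on log2(TPM + 1), 0 on log2(TPM + 0.1) and 1 without small RNA genes; leaving out each library gave 1 to 4. For combined against untreated, 3 became 0 on log2(TPM + 0.1), 1 on log2(TPM + 1) (Mrc1, higher), 2 without small RNA genes (C1qa and Mrc1, higher) and 0 to 3 leaving out each library; C1qb was gained with DESeq2 and Cd163 with no filter. For combined against ZA, 1 became 0 on both TPM scales, 2 without small RNA genes (Mrc1 and Slc40a1, higher) and 0 to 1 leaving out each library. ZA against untreated went from 0 to 1 (Slc40a1) with DESeq2 or no filter, the interaction from 0 to 1 (Slc40a1) with no filter, and precursors combined against G-CSF from 0 to 1 (Slc40a1) with DESeq2. The cause was not tested.

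In combined against untreated, signs turned for Adgre1 (0.102 on log2(TPM + 0.1), 0.0793 on log2(TPM + 1)), Hmox1 (0.49, 0.48, and 0.24 without small RNA genes), Mrc1 (0.95 on log2(TPM + 1), 0.79 without small RNA genes) and C1qa (0.59 without small RNA genes). With run 2 libraries as labelled, precursors against marrow called 0 members, with C1qa 1.02, C1qb 0.85, C1qc 1.08, Hmox1 0.44, Mrc1 0.20, Siglec1 0.22, Slc40a1 0.39 and Trem2 -0.42. Mean levels with G-CSF were below untreated for 4 of 10 members in TPM and 10 in CPM. Over all members and comparisons, other settings gave 710 estimates and leaving out a library gave 780. Of these, 91 and 34 had the opposite sign to the main fit with no call in either.

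With the replicate number as a block, combined against untreated called 1 member (Siglec1) and 481 genes in place of 1137; G-CSF against untreated called 3 (Cd163, Siglec1 and Trem2) and 1361 in place of 1746; combined against ZA called 387 in place of 638. In precursors against marrow, where both tissues share only number 2, the block, added after seeing the data, called 7 members (Slc40a1 lost, adjusted p = 0.0697) and 3292 genes in place of 7220; the untreated and G-CSF pairs numbered 2, taken alone as a block, called 8 members and 2788 genes. All genes called for G-CSF against untreated numbered 3206 with no filter, 3106 on log2(TPM + 1), 3503 on log2(TPM + 0.1), 4020 without small RNA genes and 836 to 1706 leaving out each library; for combined against untreated 1758 with DESeq2, 2540, 6110, 6014, 6861 and 296 to 1353; for combined against ZA 1024 with DESeq2, 1587 with no filter, 2747 without small RNA genes and 251 to 713. Without the doubted run 2 libraries, the labels' final precursor comparison of combined against G-CSF called 336 genes and 0 members.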

Other observations

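Other cell types of the marrow were measured beside the macrophage genes. Of all 14737 genes tested, edgeR called 11.8% with G-CSF against untreated, 4.93% higher and 6.91% lower. With G-CSF against untreated, 5 of 12 neutrophil genes rose and 0 fell, among them Ly6g (log2 change 1.12) and the granule protease genes Prtn3 (1.02) and Ctsg (0.81). The 12 genes summed to 20397 to 26028 CPM with G-CSF alone and to 22086 to 23617 CPM untreated, ranges that overlapped. Of 8 T and NK cell genes 3 fell, Cd3e, Cd8a and Cd3g, and 2 rose, Ncr1 and Nkg7. Dendritic cell genes fell in 2 of 10 cases, Ccr9 (-1.34) and Siglech (-1.15), and B lineage genes in 1 of 8, Ms4a1 (-1.12). Of 10 stromal and endothelial genes edgeR called 0 (5 at an unadjusted p under 0.05; DESeq2 called 0, with 4), with estimates from 0.44 (Lepr) to 2.11 (Sp7). The osteoclast protease Ctsk rose (2.40), as 1 of 7 osteoclast genes, and Gp9 (1.70) as 1 of 7 megakaryocyte genes.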
